A study of Mus musculus with 15 samples.

Results

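The 7 genes described here encode cytokines and receptors of the IL-1 family: the ligands Il1b and Il18, the receptor antagonist Il1rn, the decoy receptor Il1r2, and the receptor chains Il18r1, Il18rap and Il1rl1. They were chosen by symbol as IL-1 and IL-18 cytokines and receptors, and all 7 were found among the 4567 genes listed in at least 1 of 4 tables of differential expression. Il1r2 had a row in 4 of these tables, Il18r1, Il18rap and Il1rl1 in 3, Il1b in 2, and Il18 and Il1rn in 1. Among the other ligands and receptors of the family, Il36g and Il1r1 also had a row, and both are given beside the 7.

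Cytokines of the IL-1 family act through paired receptor chains that share a cytoplasmic TIR domain and signal through MyD88 and IRAK kinases to NF-κB. IL-1β and IL-18 are made as inactive precursors that caspase-1 cleaves in an inflammasome, and IL-1β comes mainly from myeloid cells, whereas IL-18 acts on T and NK cells, where it raises interferon-γ together with IL-12. In graft-versus-host disease, donor T cells meet these cytokines in tissue injured by irradiation, and the IL-33 receptor ST2, encoded by Il1rl1, is carried by activated and regulatory T cells.

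Sorted mouse T cells were profiled by RNA sequencing in 15 libraries, 3 for each of 5 groups. In 3 groups, T cells of strain C57Bl6 had been transferred together with bone marrow to allogeneic Balb/C recipients irradiated with 8 Gy, a model of acute graft-versus-host disease (aGvHD), and splenic T cells were taken on day 7 and sorted into Flica-positive CD8 cells and Flica-negative cells of the CD8 and the CD4 lineage. The remaining 2 groups were Flica-negative controls of both lineages, from C57Bl6 mice with no treatment, labelled day 0. Flica-positive cells were stained by FAM-FLICA, a fluorescent label for the active form of caspase-1, and the sort also used surface CD3, CD4 and CD8. No donor marker is named for this sort in the sources used here. In other experiments the study labelled some Flica-positive cells as recipient cells. It also reported that most Flica-positive T cells took up a dye that enters cells with damaged membranes. The study describes sorts from several mice with aGvHD and from fewer control mice, and the labels call the 3 libraries of a group biological replicates. Whether libraries, in particular those of the control lineages, came from the same mice is not stated in the labels. The controls were neither irradiated nor transplanted, so transplantation, the allogeneic host and time cannot be told apart in the comparisons with them. CD4 Flica-positive cells were not analysed here.

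Levels are given as normalized counts, which are the deposited counts divided by the authors' size factor of the library, and as mean ± SD of 3 libraries. Fold changes come from edgeR's quasi-likelihood test of 2 groups over all listed genes, and log2 fold changes are given ± SE. This SE is the absolute log2 fold change divided by the square root of the test's F statistic. It therefore restates the test and is no separate estimate of spread. A gene is called where its Benjamini-Hochberg adjusted p is below 0.05. Every listed gene had been selected by the authors from the same libraries (adjusted p under 0.05 and a log2 fold change beyond 2 in either direction, in at least 1 comparison), so the tests are not independent of that selection. Per library, the listed genes held 2143579 to 3184674 counts in 4 groups (12 libraries) and 11046043, 10180878 and 7310375 in the CD8 Flica-positive libraries. These sums cover selected genes only and are not sequencing depths.

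The sort labels were checked against Cd8a, the only gene of an 18-gene T cell list that had a row. Its level was 19748 ± 1700.0 in CD8 control cells, 13875 ± 1075 in CD8 Flica-negative cells and 10759 ± 1222 in CD8 Flica-positive cells, against 69.4 ± 40.9 in CD4 control and 6.43 ± 3.45 in CD4 Flica-negative cells. Every CD8 library therefore lay above every CD4 library. Cd4 had no row, so the CD4 sort could be checked only by the low Cd8a level.

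The CD8 Flica-positive libraries stood apart in genes of other cell types. All 14 neutrophil markers were called higher in CD8 Flica-positive than in CD8 Flica-negative cells, where 21.1% of listed genes were. Their median log2 fold change was 4.33 against 0.41 for all listed genes. Their summed level was 200517, 357705 and 387729 in the CD8 Flica-positive libraries, 11864, 18188 and 18053 in the CD8 Flica-negative libraries and 2670.4, 4712 and 7795 in the CD4 Flica-negative libraries. In control cells the sum was 118, 60.9 and 74.0 for CD8 and 144, 80.3 and 65.8 for CD4, with Ly6g and Elane at 0 in both, Camp at 0 in CD8 control and Mmp8 at 0 in CD4 control cells. No neutrophil marker was at 0 in any day 7 group. The most abundant of them, the granule protein gene Ngp, reached 84228 ± 32489.7 in CD8 Flica-positive cells, 4043 ± 885 in CD8 Flica-negative cells, 1269.5 ± 693 in CD4 Flica-negative cells, 6.23 ± 5.57 in CD8 control and 6.90 ± 5.98 in CD4 control cells.

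Markers of monocytes and macrophages moved in the same comparison, with 10 of 14 called higher in CD8 Flica-positive than in CD8 Flica-negative cells. Their sum was 34919.6, 62968 and 59747 in CD8 Flica-positive, 16789.9, 19266 and 17332 in CD8 Flica-negative, 8688, 8316 and 7549.7 in CD4 Flica-negative, 6389.9, 6286 and 6498 in CD8 control and 621, 552 and 768 in CD4 control libraries. The most abundant marker in CD8 Flica-positive cells was Lyz2, at 26217 ± 10046 against 1408 ± 570.0 in CD8 Flica-negative and 85.3 ± 32.4 in CD8 control cells. Over all 15 libraries it was Ly6c2, which CD8+ T cells also express, at 16750.2 ± 4375 in CD8 Flica-positive, 10526 ± 1658 in CD8 Flica-negative and 6109 ± 170.2 in CD8 control cells. Ly6c2 alone thus made up most of the sum in CD8 control and CD8 Flica-negative cells. In CD4 Flica-negative cells Ccr2, at 5049 ± 1022, and Ly6c2, at 2342 ± 253, made up most of it. The macrophage complement gene C1qa was at 0 in CD8 control cells and at 262 ± 116 in CD8 Flica-positive cells, and Mertk was at 0 in both CD4 groups. All 7 measured mast cell or basophil markers were called higher as well, with sums of 2739.9, 4588 and 4134 in CD8 Flica-positive, 247, 278 and 177 in CD8 Flica-negative, 162, 203 and 262 in CD4 Flica-negative, 70.5, 60.9 and 109.6 in CD8 control and 75.9, 56.1 and 41.8 in CD4 control libraries. The most abundant of these was Hdc, the histidine decarboxylase gene, at 1622 ± 547 and 110.3 ± 16.0, and Mcpt8 and Prss34 were at 0 in both control groups, Gata2 in CD8 control cells, and Ms4a2 in CD8 control and CD4 Flica-negative cells. In sorted bulk samples, fewer cells of a type and less RNA per cell cannot be told apart.

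**Figure D1:**
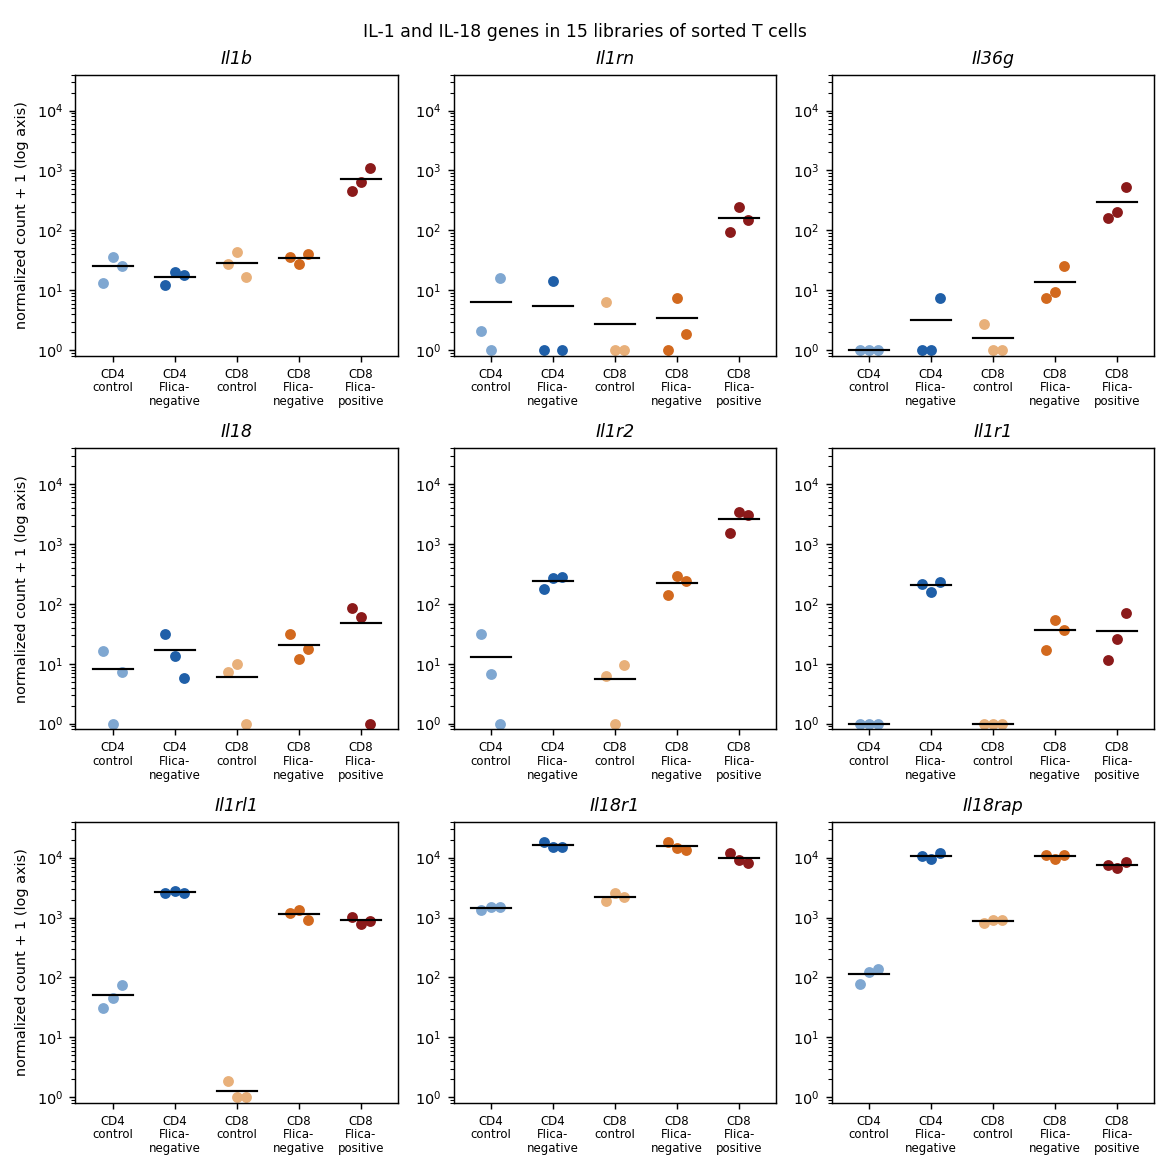
Normalized counts plus 1 of the IL-1 family genes in each of the 15 libraries, by group, on a logarithmic axis, with points for single libraries and a horizontal line for the mean of 3. Il1b, Il1rn, Il1r2 and Il36g were highest in CD8 Flica-positive cells, whereas Il18r1, Il18rap and Il1rl1 were high in all 3 groups of day 7.

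Among the ligands, Il1b, which encodes the IL-1β precursor, was measured at 450.2, 646 and 1087 normalized counts in the CD8 Flica-positive libraries and at 35.2, 26.1 and 39.7 in the CD8 Flica-negative libraries. Its counts were 11.5, 19.0 and 16.8 in CD4 Flica-negative, 26.4, 42.1 and 15.4 in CD8 control and 12.3, 34.8 and 24.9 in CD4 control libraries. All 3 CD8 Flica-positive libraries were above all 12 others, and the other 4 groups overlapped with their neighbours in level. The log2 fold change between CD8 Flica-positive and CD8 Flica-negative cells was 4.43 ± 0.40, a 21.5-fold difference with an edgeR adjusted p of 5.2e-06. Against CD8 control cells it was 4.69 ± 0.53, with an edgeR adjusted p of 9.2e-05 and all 3 libraries above all 3 controls. In Flica-negative cells no rise was called, with log2 fold changes of 0.27 ± 0.61 for CD8 cells (edgeR adjusted p = 0.7, and -0.14 with TMM scaling) and -0.61 ± 0.80 for CD4 cells (edgeR adjusted p = 0.53), the groups overlapping in both. The CD4 Flica-negative libraries were all below the CD8 Flica-negative ones, but the log2 difference of -1.09 ± 0.66 was not called (edgeR adjusted p = 0.26). Exons of Il1b overlap those of the antisense gene Il1bos, and since the strand setting of the counting is not given in the sources used here, reads of the 2 genes cannot be told apart.

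Il1rn, which encodes the antagonist that occupies the IL-1 receptor without signalling, had low counts outside CD8 Flica-positive cells. Its normalized counts were 93.8, 243 and 151 in the CD8 Flica-positive libraries, 0, 6.53 and 0.863 in CD8 Flica-negative and 0, 13.4 and 0 in CD4 Flica-negative libraries. In control cells they were 5.29, 0 and 0 for CD8 and 1.12, 0 and 15.1 for CD4. Each CD8 Flica-positive library was above all 12 others, and the other 4 groups overlapped. The log2 fold change was 5.95 ± 0.97 against CD8 Flica-negative cells (edgeR adjusted p = 0.00052) and 6.40 ± 1.31 against CD8 control cells (edgeR adjusted p = 0.0028). Both sizes depended on 1 library: of the raw counts of 0, 7 and 1 in CD8 Flica-negative and 6, 0 and 0 in CD8 control libraries, nearly all lay in 1, and the log2 fold change became 8.07 without CD8 Flica-negative replicate 2. Without CD8 control replicate 1 the controls held no count, and the bound on the rise was at least 58.3-fold. Within the CD8 Flica-positive libraries the ratio of Il1rn to Il1b per kilobase of exon was 0.0718, 0.129 and 0.0478, so Il1b stayed above its antagonist in each. The log2 fold change from control in Flica-negative cells was 0.45 ± 1.85 for CD8 and -0.32 ± 1.99 for CD4, and neither was called (edgeR adjusted p = 0.83 and 0.9).

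Il36g, which encodes IL-36γ and lies near Il1rn on chromosome 2, had normalized counts of 161, 204 and 532 in the CD8 Flica-positive libraries and 6.39, 8.40 and 24.2 in the CD8 Flica-negative libraries. It was at 0 in all CD4 control libraries, at 1.76, 0 and 0 in CD8 control and at 0, 0 and 6.41 in CD4 Flica-negative libraries. The CD8 Flica-positive libraries again lay above all others. Its log2 fold change between the CD8 populations of day 7 was 4.49 ± 0.67, with an edgeR adjusted p of 0.00026, and ranged from 3.78 without CD8 Flica-positive replicate 3 to 5.31 without CD8 Flica-negative replicate 3. The CD8 control libraries held raw counts of 2, 0 and 0, and against them CD8 Flica-positive cells gave a count ratio of 489 with a counting interval of 135 to 4049 (95%, counting error only; edgeR adjusted p = 0.00018). For CD8 Flica-negative cells against the same controls the ratio was 22.3 (5.82 to 190.3; edgeR adjusted p = 0.029), a call lost with TMM scaling (edgeR adjusted p = 0.056) and without CD8 control replicate 2 (0.073, ratio 14.8) or 3 (0.054) or CD8 Flica-negative replicate 3 (0.13, ratio 12.3). All control counts of Il36g lay in CD8 control replicate 1, and without it the ratios became bounds, of at least 107-fold for CD8 Flica-positive and at least 4.66-fold for CD8 Flica-negative cells. For CD8 Flica-positive cells the ratio was 323 without CD8 control replicate 2 and 299.7 without CD8 Flica-positive replicate 3.

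Il18 encodes the IL-18 precursor and had low counts in all 5 groups. Its normalized counts were 83.2, 60.0 and 0 in CD8 Flica-positive, 30.9, 11.2 and 16.4 in CD8 Flica-negative and 30.0, 12.3 and 4.81 in CD4 Flica-negative libraries, and 6.17, 8.95 and 0 in CD8 control and 15.6, 0 and 6.23 in CD4 control libraries. CD8 Flica-positive replicates 1 and 2 were the highest of all 15, whereas replicate 3 of the same group held no count, and every group overlapped with the next in level. The CD8 Flica-negative libraries were nevertheless all above the CD8 control libraries. No comparison called Il18: the log2 fold change was 1.29 ± 1.23 between the CD8 populations of day 7 (edgeR adjusted p = 0.47) and 3.21 ± 1.75 between CD8 Flica-positive and control cells (edgeR adjusted p = 0.12). Without CD8 Flica-positive replicate 3 the latter became 3.79, with an edgeR adjusted p of 0.021. In Flica-negative cells the log2 fold change from control was 1.92 ± 1.17 for CD8 and 1.11 ± 1.33 for CD4, and neither was called. Leaving out 1 library at a time gave 0.62 to 1.88 between the CD8 populations of day 7, and against control 2.54 to 3.88 in CD8 Flica-positive, 1.35 to 2.60 in CD8 Flica-negative and 0.23 to 2.28 in CD4 Flica-negative cells.

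Il1r2 encodes a receptor that binds IL-1β but lacks the signalling domain and so acts as a decoy. Its normalized counts were 1525, 3373 and 3069.8 in the CD8 Flica-positive libraries, 137, 295 and 236 in CD8 Flica-negative and 174, 273 and 277 in CD4 Flica-negative libraries. Control libraries held 5.29, 0 and 8.66 for CD8 and 30.1, 5.80 and 0 for CD4. The gene thus took 3 levels with no overlap between them: CD8 Flica-positive cells, then both Flica-negative groups of day 7, which overlapped, then both control groups, which also overlapped. Between the CD8 populations of day 7 the log2 fold change was 3.57 ± 0.36, an 11.9-fold difference (edgeR adjusted p = 1.2e-05). From control to day 7 it was 9.14 ± 0.76 in CD8 Flica-positive cells (edgeR adjusted p = 1.8e-05), 5.57 ± 0.78 in CD8 Flica-negative cells (edgeR adjusted p = 0.00012) and 4.38 ± 0.83 in CD4 Flica-negative cells (edgeR adjusted p = 0.00066), and these first 2 comparisons share the CD8 control libraries. The CD4 control libraries held raw counts of 27, 6 and 0, and the CD4 value became 6.37 without CD4 control replicate 1 and 3.77 without replicate 3. Without CD8 control replicate 3 the CD8 values became 9.90 and 6.33, and all stayed called. In these comparisons with control, 14, 13 and 12 of 14 neutrophil markers were also called higher, in the order of the rises above. Of listed genes 46.8%, 37.6% and 31.6% were called higher there. The part of neutrophils in the rise of Il1r2 from control was not tested. CD4 and CD8 Flica-negative cells differed by 0.11 ± 0.32, which was not called. An antisense gene, Gm16894, overlaps Il1r2 outside its exons.

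Of the 7 members, 3 were called higher in CD8 Flica-positive than in CD8 Flica-negative cells (Il1b, Il1rn and Il1r2), where 21.1% of the 4478 listed genes tested were called higher. In the same comparison 1 of 7, Il18r1, was called lower, against 2.72% of listed genes. The choice of scaling bears on this comparison: TMM scaling over the listed genes gave a median log2 fold change that fell by 0.55 and changed the calls from 946 higher and 122 lower to 738 higher and 458 lower. With TMM the log2 fold changes of Il1b, Il1rn and Il1r2 were 3.82, 5.40 and 3.00, all still called. The sums of the neutrophil, macrophage and mast cell markers given above were higher in the same comparison, as were these 3 genes and Il36g. From control to Flica-negative cells the neutrophil sum rose in both lineages, where Il1b and Il1rn were not called. The part of these markers in the levels of Il1b, Il1rn, Il1r2 and Il36g was not tested.

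The receptor chains followed another order. Il18r1 encodes the chain that binds IL-18, and its normalized counts were 18159.6, 15259 and 14809.5 in CD4 Flica-negative, 18367, 14419 and 13344 in CD8 Flica-negative and 12069, 9217 and 8195 in CD8 Flica-positive libraries. Control libraries held 1899, 2526 and 2238 for CD8 and 1359, 1526 and 1517 for CD4. Every library of day 7 was above every control, both Flica-negative groups overlapped, the CD8 Flica-positive libraries were all below them, and CD4 control was all below CD8 control. The log2 fold change from control was 3.45 ± 0.16 in CD4 Flica-negative (edgeR adjusted p = 6.5e-09), 2.79 ± 0.17 in CD8 Flica-negative (edgeR adjusted p = 3.2e-07) and 2.15 ± 0.22 in CD8 Flica-positive cells (edgeR adjusted p = 5.6e-05). For CD8 Flica-positive cells this last value was near the median of 2.04 over all listed genes, and with TMM scaling it was 0.53 and no longer called (edgeR adjusted p = 0.16). CD8 Flica-positive cells were 1.56-fold below CD8 Flica-negative cells, a log2 fold change of -0.65 ± 0.21 with an edgeR adjusted p of 0.045, and with TMM scaling it was -1.24 (edgeR adjusted p = 0.0056). Under the authors' scaling the call was lost without CD8 Flica-negative replicate 1 (-0.50; edgeR adjusted p = 0.17) or 2 (-0.69; 0.11) and without CD8 Flica-positive replicate 2 (-0.60; 0.14) or 3 (-0.53; 0.08).

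Il18rap encodes the accessory chain without which the IL-18 receptor does not signal. Its normalized counts were 10472, 9453 and 11854 in CD4 Flica-negative, 11145, 9335 and 10899.7 in CD8 Flica-negative and 7516, 6825 and 8333 in CD8 Flica-positive libraries, and 795, 912 and 914 in CD8 control and 77.0, 121 and 138 in CD4 control libraries. The groups stood in the same order as for Il18r1, with overlap only between the Flica-negative groups of day 7. From control, the log2 fold change was 6.56 ± 0.25 in CD4 Flica-negative cells, a 94.2-fold rise (edgeR adjusted p = 2.1e-09). In CD8 Flica-negative cells it was 3.58 ± 0.15 (edgeR adjusted p = 3.9e-08), and in CD8 Flica-positive cells, compared with the same controls, 3.11 ± 0.20 (edgeR adjusted p = 7.1e-06). The 3 CD8 Flica-positive libraries were below the 3 CD8 Flica-negative ones, but the log2 fold change of -0.47 ± 0.19 was not called (edgeR adjusted p = 0.09). It was called at -1.06 with TMM scaling (edgeR adjusted p = 0.004), with DESeq2 (adjusted p = 0.04) and without CD8 Flica-positive replicate 3 (-0.54; edgeR adjusted p = 0.045). With the replicate number as a block it was also called (-0.47; edgeR adjusted p = 0.04).

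The balance of both IL-18 receptor chains also differed between groups. Per kilobase of exon, the ratio of Il18rap to Il18r1 within a library was 0.0404, 0.0565 and 0.0648 in CD4 control and 0.298, 0.257 and 0.291 in CD8 control libraries. On day 7 it was 0.411, 0.442 and 0.571 in CD4 Flica-negative, 0.433, 0.462 and 0.583 in CD8 Flica-negative and 0.444, 0.528 and 0.725 in CD8 Flica-positive libraries, in the order of their numbers. The CD4 control libraries were below all others, and the 3 groups of day 7 overlapped. On the same scale Il18r1 was the most abundant family member in each of the 5 groups, at 3337 ± 377 normalized counts per kilobase in CD4 Flica-negative and 305 ± 19.5 in CD4 control cells, against 1569 ± 178 and 16.6 ± 4.65 for Il18rap.

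Il1rl1 encodes ST2, the receptor of IL-33. Its normalized counts were 2591, 2816 and 2553 in CD4 Flica-negative, 1173, 1312 and 904 in CD8 Flica-negative and 1039.9, 773 and 865 in CD8 Flica-positive libraries. In control cells they were 30.1, 43.5 and 73.8 for CD4 and 0.881, 0 and 0 for CD8, the last from raw counts of 1, 0 and 0. CD4 Flica-negative cells were above both CD8 groups of day 7, which overlapped, and CD4 control was above CD8 control in every library. The rise in CD4 cells had a log2 fold change of 5.74 ± 0.31, a 53.3-fold change (edgeR adjusted p = 1.8e-08). In CD8 cells the control level rested on 1 read, and the count ratio was 3691 in Flica-negative (95% counting interval 662 to 145841; edgeR adjusted p = 7.2e-08) and 2939 in Flica-positive cells (527 to 116150.0; edgeR adjusted p = 4.8e-06), both against the same controls. Without CD8 control replicate 1, which held that read, these became bounds of at least 405-fold and at least 320.4-fold, and without replicate 2 the ratios were 2439 and 1942. CD8 Flica-positive and Flica-negative cells differed by -0.34 ± 0.23, which was not called (edgeR adjusted p = 0.31), although TMM scaling gave -0.93 with an edgeR adjusted p of 0.019.

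Il1r1 encodes the signalling receptor of IL-1β. It had no count in any of the 6 control libraries and was at 215, 159.6 and 233 in CD4 Flica-negative, 16.0, 53.2 and 36.2 in CD8 Flica-negative and 10.6, 24.7 and 68.2 in CD8 Flica-positive libraries. The CD4 Flica-negative libraries were above both CD8 groups, which overlapped. Taking 3 counts per library as the floor for the controls, the level was at least 68.1-fold higher in CD4 Flica-negative (edgeR adjusted p = 1.1e-06), at least 12.8-fold in CD8 Flica-negative (edgeR adjusted p = 0.00097) and at least 12.6-fold in CD8 Flica-positive cells (edgeR adjusted p = 0.0072). Without CD8 Flica-positive replicate 3 the last bound became 6.44-fold. CD4 exceeded CD8 Flica-negative cells by a log2 fold change of 2.52 ± 0.42, with an edgeR adjusted p of 0.0002 in this comparison and of 0.052 when all 5 groups were fitted together.

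Receptor levels can be read beside markers of the cells known to carry them. Of the 5 measured regulatory T cell markers, all 5 were called higher on day 7 than in control in CD4 Flica-negative, CD8 Flica-negative and CD8 Flica-positive cells, where 31.6%, 37.6% and 46.8% of listed genes were called higher. The most abundant on day 7, Ctla4, was at 10916 ± 489, 11469 ± 499 and 6911 ± 407 in these groups against 778 ± 149 in CD4 and 132 ± 51.1 in CD8 control cells. The sum of this list was 24318, 26829 and 27796 in CD4 Flica-negative and 18339, 19661 and 18093 in CD8 Flica-negative libraries, 12461, 12879.7 and 12282 in CD8 Flica-positive, 3039, 2859 and 2958 in CD4 control and 803, 997 and 1037 in CD8 control libraries, where Areg was at 0 in the last. Of 5 ILC2 or Th2 markers, 3 were called higher and 1 lower in CD4 Flica-negative cells against control, 2 higher in CD8 Flica-negative cells, and 2 higher and 1 lower in CD8 Flica-positive cells. In these comparisons 26.8%, 29.1% and 23.9% of listed genes were called lower. Rora led this list at 5801 ± 861 in CD4 Flica-negative, 5406 ± 471 in CD8 Flica-negative, 2443 ± 183 in CD8 Flica-positive, 445 ± 59.1 in CD4 control and 252 ± 32.8 in CD8 control cells. Il13 was at 0 in both control groups and Il17rb in CD8 Flica-positive cells. Summed, the list gave 6135 ± 877, 5990.3 ± 539, 2918 ± 123, 676 ± 34.5 and 316 ± 22.9 in the same order of groups. Part of these markers, Ctla4 and Rora among them, is also expressed by activated T cells, and their part in the level of Il1rl1 was not tested.

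For the IL-18 receptor, NK cell markers give the matching reading. Of 7 measured, 4 were called higher and 3 lower in CD8 Flica-negative cells against control, 3 higher and 2 lower in CD4 Flica-negative cells, 4 higher and 2 lower in CD8 Flica-positive cells against control, and 2 higher and 1 lower between the CD8 populations of day 7. Over all listed genes 37.6% were called higher and 29.1% lower in the first of these comparisons, 31.6% and 26.8% in the second, 46.8% and 23.9% in the third, and 21.1% and 2.72% in the last. The sum of the 7 markers was 5662, 4545 and 4564 in CD8 Flica-negative, 5616, 6808 and 7215 in CD8 Flica-positive and 1076, 964 and 975 in CD4 Flica-negative libraries, and 484, 578 and 915 in CD8 control and 169, 158 and 137 in CD4 control libraries. The most abundant was Klrk1, which activated CD8+ T cells share, at 3433 ± 655 in CD8 Flica-negative and 678 ± 159 in CD4 Flica-negative cells. In CD4 control cells Klrk1 was at 52.6 ± 12.3. Klra8 and Klra9 were at 0 in CD4 Flica-negative and CD8 Flica-positive cells, and Ncr1 was at 0 in CD4 Flica-negative cells. The part of NK cells in the levels of Il18r1 and Il18rap was not tested.

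Counted over the members, 6 of 7 were called higher in CD8 Flica-positive cells than in CD8 control cells, all but Il18, where 46.8% of 4564 listed genes were called higher. In that comparison TMM scaling gave a median log2 fold change that fell by 1.65 and calls of 1232 higher and 1610 lower in place of 2138 and 1093. With TMM the log2 fold changes were 2.95 for Il1b, 4.76 for Il1rn, 7.46 for Il1r2, 9.60 for Il1rl1 and 1.45 for Il18rap, all still called, whereas Il18r1 fell to 0.53 and lost its call (edgeR adjusted p = 0.16), which left 5 of 7. CD8 Flica-negative cells, set against the same controls, had 4 of 7 called higher (Il18r1, Il18rap, Il1r2 and Il1rl1) beside 37.6% of 4556 listed genes. The same 4 members were called higher in CD4 Flica-negative cells against CD4 control cells, beside 31.6% of 4517 listed genes. For these 2 comparisons TMM scaling shifted the median by -0.43 and -0.24.

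Between control cells of the lineages, Il1rl1 alone of the 7 members was called higher in CD4 cells, where 7.01% of 4322 listed genes were called higher, and Il18rap and Il18r1 were called lower, beside 5.81% of listed genes. The count ratio for Il1rl1 was 167 with a 95% counting interval of 29.5 to 6641 (edgeR adjusted p = 5.4e-05), and became a bound of at least 17.6-fold without CD8 control replicate 1 and a ratio of 110.4 without replicate 2. Il18rap was 7.77-fold lower in CD4 than in CD8 control cells, with a log2 fold change of -2.96 ± 0.23 (edgeR adjusted p = 7.6e-13) and no overlap. Il18r1 was 1.51-fold lower, with -0.60 ± 0.17 (edgeR adjusted p = 0.0098), a call that was lost without CD8 control replicate 2 (-0.50; edgeR adjusted p = 0.12) or CD4 control replicate 1 (-0.55; 0.051).

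Among Flica-negative cells of day 7, 1 of 7 members was called higher in CD4 than in CD8 cells, Il1rl1, beside 9.99% of 4483 listed genes, at a log2 fold change of 1.23 ± 0.18 with an edgeR adjusted p of 4.2e-05 and no overlap. In the same comparison 4 of 5 regulatory T cell markers were also called higher, as were 4 of 5 between controls, beside 7.01% of listed genes there. Their part in the level of Il1rl1 was not tested. On day 7 Il18r1 and Il18rap differed by 0.06 ± 0.13 and 0.02 ± 0.13. For Il18rap the lineages differed in control cells and overlapped on day 7. The difference between the responses was tested itself as the interaction of lineage and day: 1 member, Il18rap, was called with the larger log2 rise in CD4 cells, beside 5.65% of 4567 listed genes, and 1, Il1rl1, with the larger log2 rise in CD8 cells, beside 4.6%. For Il18rap the interaction was 2.98 ± 0.26 on the log2 scale (edgeR adjusted p = 8.9e-07). For Il1rl1 the fitted value of -5.65 ± 0.74 (edgeR adjusted p = 4.8e-05) depends on a CD8 control level of 1 read and is no bound. Il18r1 was not called, at 0.66 ± 0.22 (edgeR adjusted p = 0.059), but was called without CD8 control replicate 1 (0.76; 0.034) or CD8 Flica-negative replicate 1 (0.81; 0.025).

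Of 11 ligands and antagonists of the family, 4 had a row. In CD8 Flica-positive cells 3 of them were called higher than in CD8 Flica-negative and than in CD8 control cells, beside 21.1% and 46.8% of listed genes. In CD8 Flica-negative cells against control 1 of 4 (Il36g) was called higher, beside 37.6% of listed genes. That call was lost with TMM scaling (edgeR adjusted p = 0.056) and without single libraries, as given above. In CD4 Flica-negative cells against control edgeR called 0 of the 4, beside 31.6% of listed genes called higher and 26.8% lower. For these 4 genes 0 were at an unadjusted p below 0.05, and DESeq2 also called 0. Of 10 receptors, 5 had a row, and all 5 were called higher than control in each of the 3 groups of day 7, where 46.8%, 37.6% and 31.6% of listed genes were called higher, in the order of the medians below. The call of Il18r1 in CD8 Flica-positive cells was lost with TMM scaling. The receptors had median log2 fold changes, with genes without control counts put at their bound, of 3.65 in CD8 Flica-positive, 3.68 in CD8 Flica-negative and 5.74 in CD4 Flica-negative cells. The values 3.65 and 3.68 are the bound of Il1r1 itself and depend on the floor. Medians of the fitted values were 8.07, 5.57 and 5.74, and 8.07 is the fitted value of Il1r1, which had no control count. Over all listed genes the medians of fitted values, with no gene put at a bound, were 2.04, 0.69 and 0.14. Between the CD8 populations of day 7 the receptors had a median of -0.34, against 0.41 for all listed genes.

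Genes that act downstream of these receptors were measured for 6 of 35. Between the CD8 populations of day 7, 2 were called higher and 1 lower, beside 21.1% and 2.72% of listed genes, at a median log2 fold change of 0.00 against 0.41 for all listed genes. Peli2, a ubiquitin ligase of the IRAK pathway, was at 308 ± 183 against 16.5 ± 4.42 normalized counts, a log2 fold change of 4.21 ± 0.57 (edgeR adjusted p = 0.00012). Tifa, an adaptor of TRAF6, was at 167 ± 64.8 against 18.8 ± 9.18, with 3.14 ± 0.60 (edgeR adjusted p = 0.0018). Tnfaip3, which encodes the NF-κB inhibitor A20, fell to 18179 ± 1827 against 37260.1 ± 6160.4, with -1.04 ± 0.19 (edgeR adjusted p = 0.0015). In each of these 3 genes the groups did not overlap. In the same comparison the median log2 fold change was 4.33 for neutrophil, 3.75 for monocyte or macrophage and 4.76 for mast cell or basophil markers, whose part in the levels of Peli2 and Tifa was not tested.

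Against control, 5 of 6 signalling genes were called higher in CD8 Flica-positive cells. In CD8 Flica-negative cells 5 were called higher and 1 lower, and in CD4 Flica-negative cells 4 higher and 1 lower. Median log2 fold changes were 1.59, 2.36 and 2.46 against 2.04, 0.69 and 0.14 for all listed genes. Of listed genes 46.8%, 37.6% and 31.6% were called higher and 23.9%, 29.1% and 26.8% lower. In the same comparisons 14, 13 and 12 of 14 neutrophil markers were called higher. Of monocyte or macrophage markers 14, 6 and 5 were called higher, and 1 lower in the last. The part of both in the levels of the signalling genes was not tested. Irak3, which encodes the inhibitory kinase IRAK-M, was at 755 ± 137 against 48.9 ± 11.0 in CD8 Flica-positive against control cells, with 3.94 ± 0.35 (edgeR adjusted p = 2.5e-05, and 2.27 with TMM scaling), and its log2 fold change in CD8 Flica-negative cells was 3.43 ± 0.34 (edgeR adjusted p = 9.4e-06). For Peli2 the count ratio was 337 (115 to 1636) in CD8 Flica-positive and 18.3 (5.95 to 91.8) in CD8 Flica-negative cells, with edgeR adjusted p of 0.00028 and 0.025, and the latter call was lost with TMM scaling (0.054) and without CD8 control replicate 2 (0.06) or CD8 Flica-negative replicate 3 (0.075). All control counts of Peli2 lay in CD8 control replicate 1, without which the ratios became bounds of at least 111-fold and at least 5.91-fold, and without CD8 control replicate 2 they were 222 and 12.1. Tnfaip3 was at 37260.1 ± 6160.4 against 7199 ± 1755 in CD8 Flica-negative cells (2.37 ± 0.18; edgeR adjusted p = 1.6e-06) and at 50092 ± 7837 against 8546 ± 1527 in CD4 Flica-negative cells (2.55 ± 0.17; edgeR adjusted p = 1e-07). Nfkbiz, an atypical inhibitor and cofactor of NF-κB, was at 16184 ± 1806 against 2049.6 ± 148 in CD4 Flica-negative cells (2.98 ± 0.16; edgeR adjusted p = 1.5e-08) and at 6032 ± 452 against 1684 ± 249.9 in CD8 Flica-positive cells (1.84 ± 0.20; edgeR adjusted p = 7.5e-05), the last of which was 0.18 and not called with TMM scaling (edgeR adjusted p = 0.51). Zc3h12a, the RNase Regnase-1, was at 4487 ± 551 against 775 ± 90.6 in CD4 Flica-negative cells (2.53 ± 0.18; edgeR adjusted p = 1.5e-07).

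On day 7, 3 of 6 signalling genes were called higher in CD4 than in CD8 Flica-negative cells, beside 9.99% of listed genes, and their median log2 fold change was 0.42 against -0.13 for all listed genes. The 3 were Zc3h12a by 0.99 ± 0.16, Nfkbiz by 0.92 ± 0.14 and Tnfaip3 by 0.43 ± 0.13, with edgeR adjusted p of 0.00012, 6.4e-05 and 0.021. The call of Tnfaip3 was lost with DESeq2 (adjusted p = 0.078), with all 5 groups in 1 fit (edgeR adjusted p = 0.14) and without CD8 Flica-negative replicate 3 (0.088) or CD4 Flica-negative replicate 1 (0.11) or 2 (0.089). In control cells 1 of 6 was called higher, beside 7.01% of listed genes: Irak3, at 134 ± 26.8 against 48.9 ± 11.0 in CD4 against CD8 cells (1.46 ± 0.40; edgeR adjusted p = 0.0088, or 0.061 without CD4 control replicate 1). For the interaction 1 of 6 was called, beside 5.65% of listed genes called in that direction: Zc3h12a, at 0.92 ± 0.26 (edgeR adjusted p = 0.029), and this call was lost with TMM scaling (0.17) and without any 1 of 6 single libraries (CD4 control replicate 3, CD4 Flica-negative replicates 1 and 2, CD8 control replicates 1 and 2, CD8 Flica-negative replicate 3), at edgeR adjusted p of 0.052 to 0.086.

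Genes for processing and release of IL-1β and IL-18 were measured for 14 of 25. Between the CD8 populations of day 7, 11 were called higher in Flica-positive cells, beside 21.1% of listed genes, at a median log2 fold change of 3.44 against 0.41 for all listed genes. The 14 include the neutrophil protease genes Elane, Ctsg and Prtn3 beside inflammasome genes. In CD8 Flica-positive against CD8 Flica-negative cells Elane was at 3329 ± 1320 against 271 ± 85.8. Ctsg was at 1094 ± 431 against 105 ± 28.5 and Prtn3 at 3502 ± 1007 against 308 ± 87.3. Nlrp3, the sensor of the best-studied inflammasome, was at 326 ± 141 against 17.6 ± 15.7 (4.20 ± 0.69; edgeR adjusted p = 0.00054). Nlrp12 was at 97.6 ± 94.8 against 4.04 ± 1.03 (4.54 ± 0.93; edgeR adjusted p = 0.003), and Nlrp1a, a sensor with near-identical paralogs between which the counting may have split reads, at 48.3 ± 42.1 against 0.863 ± 1.49, a count ratio of 50.8 (17.0 to 249.6; edgeR adjusted p = 0.015). The call of Nlrp1a was lost without CD8 Flica-negative replicate 1 (edgeR adjusted p = 0.052) or 2 (0.066) or CD8 Flica-positive replicate 3 (0.052). Its ratio was 33.6 without CD8 Flica-negative replicate 2 and 25.4 without CD8 Flica-positive replicate 3, and became a bound of at least 16.1-fold without CD8 Flica-negative replicate 3, which held all counts of its group. The log2 fold change of Nlrp3 became 5.16 without CD8 Flica-negative replicate 2, and that of Nlrp12 3.36 without CD8 Flica-positive replicate 3. The neutrophil, monocyte and mast cell markers rose in the same comparison, and their part in the levels of the processing genes was not tested. Casp1 itself was 683 ± 98.6 in CD8 Flica-positive, 486 ± 30.5 in CD8 Flica-negative and 965 ± 123 in CD4 Flica-negative cells, against 43.2 ± 17.5 in CD8 and 89.3 ± 18.1 in CD4 control cells. It was named after its values were seen, as the target of the probe.

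Against control, 12 of 14 processing genes were called higher in CD8 Flica-positive cells. In CD8 Flica-negative cells 7 were called higher and 1 lower, and in CD4 Flica-negative cells 6 higher and 3 lower. Over all listed genes 46.8%, 37.6% and 31.6% were called higher and 23.9%, 29.1% and 26.8% lower. Fitted medians of the list were 5.20, 2.46 and 2.50, against 2.04, 0.69 and 0.14 for all listed genes. With genes without a control count (4 in each comparison) put at their bound, the medians of the list became 4.56, 1.49 and 0.82. Among the genes called in all 3 comparisons were Elane, Ctsg and Prtn3, which encode neutrophil serine proteases that can cleave IL-1 family precursors outside the cell. Elane was at least 1216-fold, at least 99.0-fold and at least 13.2-fold higher than control, with edgeR adjusted p of 8.9e-06, 6.6e-06 and 0.0004. Ctsg was at least 399.6-fold, at least 38.4-fold and at least 7.77-fold higher, with edgeR adjusted p of 1.7e-05, 4e-05 and 0.0027. Prtn3 gave count ratios of 3843 (1315 to 18639) and 344 (117 to 1672) in the CD8 groups and a log2 fold change of 4.98 ± 1.16 in CD4 Flica-negative cells, with edgeR adjusted p of 4.9e-06, 6.7e-06 and 0.0028, and the last log2 value became 4.39 without CD4 control replicate 3 and a bound of at least 16.9-fold without replicate 1, which held all counts of its group. Without CD8 control replicate 2, which held all CD8 control counts of Prtn3, the CD8 ratios became bounds of at least 1267-fold and at least 112-fold, and without replicate 1 they were 2518 and 225. All 3 were lower in CD4 than in CD8 Flica-negative cells, by -2.78 ± 0.35, -2.17 ± 0.46 and -2.71 ± 0.35, with edgeR adjusted p of 1e-05, 0.0019 and 1.1e-05. Elane is also on the neutrophil list, whose sums moved in the same order, and the part of those cells was not tested. For control cells and for the interaction edgeR called 0 of 11 and 0 of 14 genes tested, with 1 gene in each at an unadjusted p below 0.05, and DESeq2 called 0 and 1.

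Genes known to be induced by IL-18 with IL-12, or by IL-1β, were measured for 14 of 20. All 14 were called higher than control in CD8 Flica-positive, 12 in CD8 Flica-negative and 11 in CD4 Flica-negative cells, where 46.8%, 37.6% and 31.6% of listed genes were called higher. Their fitted medians were 5.56, 4.89 and 5.61, against 2.04, 0.69 and 0.14 for all listed genes. With genes put at the bound where a group was at the floor, their medians were 5.35, 4.37 and 5.003. The most abundant on day 7 was the granzyme gene Gzmb, at 40297 ± 3291 in CD8 Flica-positive, 40953 ± 5798 in CD8 Flica-negative and 8352 ± 208 in CD4 Flica-negative cells and at 47.5 ± 6.20 and 27.5 ± 12.4 in CD8 and CD4 control cells. Between the CD8 populations of day 7, 4 were called higher and 1 lower, beside 21.1% and 2.72% of listed genes, with a median of -0.01 against 0.41 for all listed genes. The 4 were Lcn2, which is also on the neutrophil list, Cxcl2, Ptgs2 and Saa3. All 14 neutrophil markers were called higher in the same comparison, and the part of those cells was not tested. CD4 exceeded CD8 Flica-negative cells in 3 and fell below them in 6, beside 9.99% and 12.7% of listed genes. Many of these genes respond to other signals in activated T cells as well.

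The receptor genes lie side by side. In GENCODE M21 on GRCm38 (chromosome 1, plus strand), Il1r2 spans chr1:40074079-40125231, Il1r1 chr1:40225080-40317257, Il1rl2 chr1:40324610-40367562, Il1rl1 chr1:40429570-40465415, Il18r1 chr1:40465552-40500854 and Il18rap chr1:40515362-40551705, within 477627 bases. Between neighbours in this order lie 99848, 7352, 62007, 136 and 14507 bases. All of them but Il1rl2 had a row, and these 5 were also the only ones with a row among 11 genes listed as neighbours of the cluster. The last 3 genes in this order, Il1rl1, Il18r1 and Il18rap, were each high in all 3 groups of day 7 and had log2 fold changes of -0.34, -0.65 and -0.47 between the CD8 populations of day 7, whereas Il1r2 at the other end of the cluster rose 11.9-fold between them. The ligand genes lie apart: Il1b at chr2:129364570-129371139 on the minus strand, Il1rn at chr2:24336853-24351494 and Il36g at chr2:24186476-24193568 on the plus strand, and Il18 at chr9:50554827-50581840 on the plus strand. Of 11 neighbours listed for Il1b and Il1rn, 4 had a row, and 3 of them (Il1b, Il1rn and Il36g) were called higher in CD8 Flica-positive than in CD8 Flica-negative cells, beside 21.1% of listed genes. The other one, the mitotic gene Ckap2l, was the most abundant at 1235 ± 89.9 and 893 ± 229, and was not called.

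**Figure D2:**
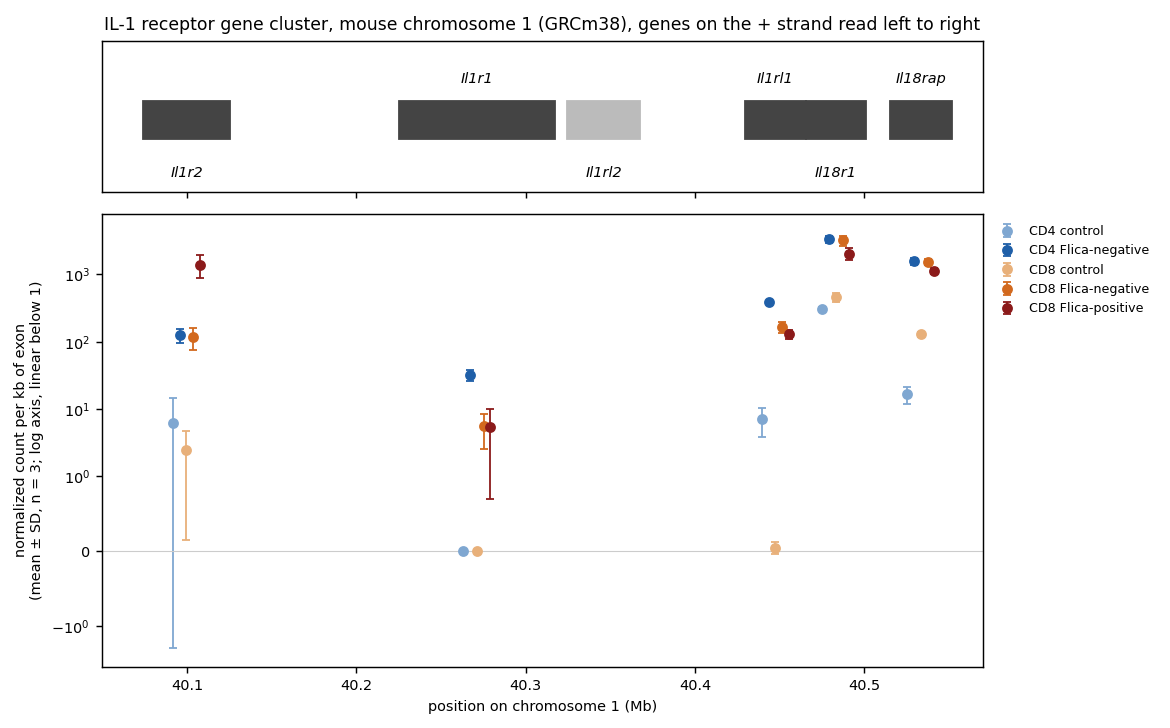
Map of the IL-1 receptor cluster on chromosome 1 (GRCm38) with each gene drawn to scale and Il1rl2, which had no row, in grey, above normalized counts per kilobase of exon as mean ± SD of 3 libraries, with the 5 groups side by side at each gene, on a logarithmic axis that is linear below 1. Il18r1 and Il18rap were the most abundant in the Flica-negative groups of day 7, whereas Il1r2 rose to 1392 per kilobase in CD8 Flica-positive cells.

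Bases just upstream of the 3 adjacent receptor genes are shown because each of these genes rose on day 7 and because they lie close enough for 1 of them to start 136 bases after the end of another. They come from RefSeq on GRCm38.p6, which held an entry for each of the 3, and read 5′ to 3′ on the plus strand up to the base before the annotated start. Capitals mark matches to the motifs searched on both strands: TGANTCA for AP-1, TTCNNNGAA for STAT factors, AGATAA for factors of the GATA family, TGTGGT for Runx factors, AGGAAG for Ets factors, GGTGTGA for T-box factors, and the NF-κB motif.
Il1rl1, chr1:40429320-40429569: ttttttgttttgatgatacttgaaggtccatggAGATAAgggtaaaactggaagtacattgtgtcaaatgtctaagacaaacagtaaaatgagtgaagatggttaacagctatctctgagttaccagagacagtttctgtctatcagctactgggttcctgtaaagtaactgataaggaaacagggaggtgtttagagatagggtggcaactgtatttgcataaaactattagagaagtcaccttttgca
Il18r1, chr1:40465416-40465551: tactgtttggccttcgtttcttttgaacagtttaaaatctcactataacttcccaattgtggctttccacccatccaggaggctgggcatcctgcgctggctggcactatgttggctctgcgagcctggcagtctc
Il18rap, chr1:40515112-40515361: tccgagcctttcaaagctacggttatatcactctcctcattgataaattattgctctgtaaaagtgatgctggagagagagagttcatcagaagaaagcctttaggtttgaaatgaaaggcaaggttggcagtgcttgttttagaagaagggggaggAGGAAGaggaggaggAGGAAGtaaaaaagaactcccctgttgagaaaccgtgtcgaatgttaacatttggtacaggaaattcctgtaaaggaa
The Il1rl1 window held 1 GATA match, at -217 to -212 from the start, and 9.99% of 32851 promoter windows of 250 bases held this motif. The Il18rap window held 2 Ets matches, at -93 to -88 and -78 to -73, a motif found in 29.5% of windows. The whole spacer of 136 bases between Il1rl1 and Il18r1 held no match, where windows of that length held the Ets motif in 18.1% and the AP-1 motif in 3.85%. In windows of 250 bases the shares of the other motifs were 6.75% for AP-1, 7.02% for STAT, 14.1% for Runx, 3.33% for T-box and 5.001% for NF-κB. A match describes letters only, and further RefSeq starts, of Il1rl1 at 10059 bases downstream and of Il18r1 at 69 and 454 bases downstream, are not shown.

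For each member, the 3 genes most like it over the 15 libraries were taken from 2180 listed genes with a mean of at least 50, by Pearson's r on log2 values. The libraries fall into 5 groups, so these values mostly describe group levels. For Il1b they were Acsl1 (r = 0.966), Spi1 (0.957) and Megf9 (0.957), of which Spi1, the myeloid transcription factor PU.1, was at 2543 ± 1033 in CD8 Flica-positive and 119 ± 19.2 in CD8 Flica-negative cells. For Il1rn they were Tcn2 (r = 0.905), Pira1 (0.900) and Ighv5-6 (0.894), and for Il1r2 Ifi211 (r = 0.968), E2f8 (0.967) and Slfn4 (0.965). For Il18, with its low counts, r was lower: Myl4 (r = 0.726), Gm13068 (0.699) and Xcr1 (0.693). Il18rap was closest to Il2rb (r = 0.995), Tbx21 (0.990) and Runx2 (0.989), and Tbx21, which encodes T-bet, was at 5404 ± 493 in CD8 Flica-negative, 3978 ± 739 in CD4 Flica-negative, 3870.2 ± 675 in CD8 Flica-positive, 450.2 ± 77.8 in CD8 control and 118 ± 36.9 in CD4 control cells. Il18r1 was closest to Nptn (r = 0.990), Gna15 (0.989) and Rilpl2 (0.987), and Il1rl1 to Ptpn13 (r = 0.991), Epas1 (0.987) and Sdcbp2 (0.986). Among the members themselves, Il18r1 and Il18rap had an r of 0.958, Il18r1 and Il1rl1 of 0.838, Il1b and Il1rn of 0.829, Il1b and Il1r2 of 0.597, and Il1b and Il18r1 of 0.211.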

How the data were processed

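RNA of sorted splenic T cells was captured with oligo-dT and sequenced by the study. Per the submitters' processing notes, the tools were STAR 2.7.1a and DESeq2 and the build GRCm38. The counting tool, its strand setting and the annotation are not given in the sources used here. The authors deposited 4 gene tables with raw counts of 15 libraries, which were used as counts, and a mean expression signal per gene, which the authors computed from counts divided by size factors. The size factors (0.836 to 1.25) were recovered from the deposited counts and means with a largest relative error of 6.7e-15. The authors' fold changes, test statistics and p-values, and 4 tables of enriched terms, were not used. Counts of a gene were identical in all tables that list it.

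Groups were compared pairwise with edgeR 4.0.16 (quasi-likelihood test, two-sided, the authors' size factors) in R 4.3.3 with limma 3.58.1, with Benjamini-Hochberg adjustment over the listed genes with a count in the libraries compared. The interaction was fitted on 4 groups. Lists are described by counts and medians. Where a group held no count, folds used a floor of 3 counts per library. With 1 to 3 counts in total, the ratio has an exact binomial 95% interval. Floors and intervals cover counting error only. Alternatives were TMM over the listed genes, DESeq2 1.42.0, a minimum mean of 10, all 5 groups in 1 fit, a replicate block, and leaving out each library. Tables of selected genes do not give library depth, and genes without a row were not measured here. Replicates of a group were checked and differed beyond sampling noise. The fits were tested on simulated data. Python 3.11.15, numpy 2.4.6, pandas 2.3.3, scipy 1.17.1 and matplotlib 3.10.9 were used, with positions from GENCODE M21, which lacks 196 of the 4567 identifiers.

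Named genes are the members, the other IL-1 family ligands and receptors with a row, the 3 called genes with the largest absolute fitted log2 fold change per comparison of the signalling and of the processing list, the 3 most alike genes per member, and the most abundant gene of each marker list over all libraries or in the CD8 populations of day 7. Ccr2 is named as the most abundant monocyte or macrophage marker in CD4 Flica-negative cells. Members and lists were chosen with earlier results of these data known.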

Additional observations from a re-analysis of the deposited data

Results flagged for a closer look

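Flica-negative cells of the CD4 and CD8 lineages differed in their response for 2 of the 7 members by a test of the difference itself, 1 with the larger and 1 with the smaller log2 rise in CD4 cells, beside 5.65% and 4.6% of 4567 listed genes. For Il18rap the log2 rise from control to day 7 was larger in CD4 than in CD8 cells by 2.98 (edgeR adjusted p = 8.9e-07), with 112 ± 31.4 and 10593 ± 1205 normalized counts in CD4 cells and 873 ± 68.1 and 10459.6 ± 982 in CD8 cells. For Il1rl1 the rise on the log2 scale was smaller in CD4 cells, with a log2 difference of -5.65 (edgeR adjusted p = 4.8e-05), and means of 49.2 ± 22.4 and 2653 ± 142 in CD4 cells against 0.294 ± 0.509 and 1129 ± 208 in CD8 cells. The CD8 control libraries held 1, 0 and 0 counts of Il1rl1, so the size of that difference is not fixed by these libraries. By the same test 3 of 5 regulatory T cell and 2 of 5 ILC2 or Th2 markers had the smaller log2 rise in CD4 cells. Their part in the level of Il1rl1 was not tested.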

How the results depend on the processing

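Over all alternatives, 531 of the 574 values compared with the reported ones kept direction and call, 8 gained and 7 lost a call and 28 changed sign, and no called member changed sign. Another 433 such values covered Il36g, Il1r1 and the signalling and processing genes named by fold change, in comparisons that called them. Of these, 405 kept their call and 28 lost it, with no change of sign. The calls that changed are given with their genes above, except those lost with the replicate block: Il1r1 in CD8 Flica-positive against control cells (adjusted p = 0.056), and Il36g and Peli2 in CD8 Flica-negative against control cells (0.13 and 0.087). With TMM, Il1b and Il1rn in CD8 Flica-negative against control cells became -0.14 and -0.23, and 287 in place of 468 listed genes were called for the interaction. The replicate block gave 2106 in place of 3231 called genes for CD8 Flica-positive against control cells, made Il18rap called between the CD8 populations of day 7 (-0.47; adjusted p = 0.04) and gave -0.21 for Il1rn between Flica-negative cells. It left the number of members called at 6, 4, 4, 1, 3 and 2 in the other comparisons. Within a day it gave 1167 in place of 1068 called genes between the CD8 populations of day 7, 1290 in place of 1017 between Flica-negative cells and 686 in place of 554 between controls. The deviations of libraries of the same number from their group means correlated, for the 3821 genes whose mean reached 10, at 0.0392 to 0.128, 0.0282 to 0.113 and 0.0267 to 0.0963 in these 3 comparisons, where 5, 6 and 6 of 6 libraries correlated best with their own number. For the 1673 genes whose mean reached 100 the values were 0.0722 to 0.240, 0.00344 to 0.341 and 0.0182 to 0.125. Between day 7 and control they were -0.0690 to 0.00387 for the 3821 genes. No source says that a number marks a shared sort, and not every value exceeded 0.1, so the main tests did not pair libraries. These values do not exclude that libraries of the same number and day shared a sort. The calls within a day are therefore given with and without the block. Fitting all 5 groups called 652 in place of 1017 genes between Flica-negative cells. Without single libraries, 705 to 1021 in place of 1068 genes were called between the CD8 populations of day 7, the lowest without CD8 Flica-negative replicate 2. Uncalled log2 fold changes that changed sign without a library ranged, for CD8 Flica-negative against control, from -0.0248 to 0.68 for Il1b and -1.73 to 1.00 for Il1rn, and for CD4 from -0.89 to 2.77 for Il1rn. Between Flica-negative cells they ranged from -1.19 to 0.18 for Il18, -0.14 to 0.37 for Il1r2, -0.0702 to 0.0939 for Il18rap and -0.0324 to 0.21 for Il18r1. For Il1rn they were 0.24 to 2.98. Between controls they ranged from -0.58 to 0.20 for Il1b, -0.67 to 1.19 for Il18, -0.66 to 2.12 for Il1r2 and -1.52 to 2.13 for Il1rn, and for the interaction from -1.69 to 0.36 for Il18, -1.95 to 0.80 for Il1r2 and -1.35 to 2.32 for Il1rn. Cases that left a group with no count of Il1rn are not in these ranges and give no size. Without CD8 control replicate 1 the fit returned 4.47 for CD8 Flica-negative against control, 5.54 between controls and -4.78 for the interaction. Without CD4 Flica-negative replicate 2 it returned -5.60 for CD4 against control, -4.52 between Flica-negative cells and -6.05 for the interaction. The cause was not tested.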

Other observations

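Of 4 measured dendritic cell markers, 1 was called higher and 1 lower in CD8 Flica-positive than in CD8 Flica-negative cells, beside 21.1% and 2.72% of listed genes. Against CD8 control cells 3 were called higher and 1 lower, beside 46.8% and 23.9% of listed genes. The median log2 fold change was 4.43 there, against 2.04 for all listed genes. Their sum was 5593, 6629 and 5130.2 in CD8 Flica-positive, 10005, 9543 and 7159 in CD8 Flica-negative, 2399, 2802 and 1899 in CD4 Flica-negative, 8448, 8405 and 7548 in CD8 control and 8389, 7963 and 8027 in CD4 control libraries. Itgax was the most abundant in CD8 Flica-positive cells, at 5234 ± 685, and in CD8 Flica-negative cells, at 8514 ± 1538. In the other 3 groups this was Ccr7, a homing receptor that naive T cells share, at 8071 ± 221 in CD4 control and 7996 ± 537 in CD8 control cells against 1136 ± 140.3 in CD4 Flica-negative, 209.8 ± 61.8 in CD8 Flica-negative and 108 ± 26.1 in CD8 Flica-positive cells. Of 8 measured B cell or plasma cell markers, 7 were called lower in CD8 Flica-negative and 7 in CD4 Flica-negative cells than in control cells, where 29.1% and 26.8% of listed genes were called lower. In CD8 Flica-positive cells 7 were called lower and 1 higher than in control cells, beside 23.9% and 46.8% of listed genes, at a median log2 fold change of -4.02 against 2.04 for all listed genes, and 4 were called higher than in CD8 Flica-negative cells, beside 21.1%. The median log2 fold change of the 8 in the last comparison, in which Il1b, Il1rn, Il1r2 and Il36g were also called higher, was 3.39 against 0.41 for all listed genes. The part of these cells in the levels of the IL-1 family genes was not tested. The B cell sums were 7243 ± 1093 in CD4 control, 7321 ± 1741 in CD8 control, 122 ± 53.5 in CD4 Flica-negative, 275 ± 53.2 in CD8 Flica-negative and 1451 ± 288 in CD8 Flica-positive cells. Jchain, a plasma cell gene, was the most abundant in CD8 Flica-positive cells, at 917 ± 193 against 76.1 ± 37.9 in CD8 Flica-negative cells, in which Cd79b led at 149 ± 23.8. In the other 3 groups this was Ighd, the IgD heavy chain gene of naive B cells, at 1521 ± 168, 1570.1 ± 360.0, 58.1 ± 39.9, 27.3 ± 7.91 and 74.5 ± 38.9 in the order of the sums, and Ms4a1 was at 0 in both Flica-negative groups of day 7.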
